A study of Mus musculus with 6 samples.

Results

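The genes of 3 neuronal RNA-binding families and of the Ptbp switch were examined, 10 in all and chosen by gene name: Elavl2, Elavl3, Elavl4, Nova1, Nova2, Rbfox1, Rbfox2, Rbfox3, Ptbp1 and Ptbp2. All 10 of 10 were found among the 39174 genes of the deposited tables, and all 10 reached the mean of 1 FPKM over the libraries that was required for testing, as did 14611 genes in all. FPKM is the number of fragments scaled to transcript length and library total, a level per length, so genes can be set side by side within a library. The series holds 6 RNA-seq libraries from primary mouse motoneuron cultures: 3 are Nmd-/- (the neuromuscular degeneration allele of the helicase gene Ighmbp2 on both chromosomes) and 3 are Nmd+/+, all with CD-1 as the strain. The labels give no age, no number of animals per culture and no statement that replicates were separate cultures; the p-values below rest on the spread between libraries, which may be technical.

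Neuronal Elavl proteins (also called Hu proteins) bind U-rich elements and stabilise or splice neuronal mRNAs. Nova proteins bind YCAY clusters and Rbfox proteins bind GCAUG, and the position of their sites around an exon sets whether it is included or skipped. Ptbp1 represses neuronal exons in progenitors and glia. In differentiating neurons miR-124 lowers Ptbp1, and its paralogue Ptbp2 then rises, because Ptbp1 favours the skipping of a short Ptbp2 exon whose loss leads to nonsense-mediated decay of the transcript. Rbfox3, known as the antigen NeuN, appears in postmitotic neurons, whereas Rbfox2 is present in many cell types.

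The exon behind the Ptbp switch and its counterpart in Ptbp1 are shown first, because their inclusion links the levels of these genes. Both were read from GENCODE M21 transcripts (GRCm38) and are given 5′ to 3′ on the gene's strand, with the bases that differ between the genes in capitals. The Ptbp1 exon is coding exon 9 of a Ptbp1 transcript of 13 exons (chr10:79862014-79862047, plus strand), and the Ptbp2 exon is coding exon 10 of a Ptbp2 transcript of 14 exons (chr3:119724612-119724645, minus strand).
Ptbp1: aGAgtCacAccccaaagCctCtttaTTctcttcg
Ptbp2: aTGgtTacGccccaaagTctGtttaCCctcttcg
Each exon has 34 bases, and 26 of them (76.5%) were the same in both genes. Without the exon the reading frame of the Ptbp2 transcript ended after 356 residues in place of 531, and the early stop lay 361 bases before the last exon junction. For the Ptbp1 transcript the same step gave 353 residues in place of 529. The annotation holds 2 transcripts that skip the exon for each gene, and each of them is classed as nonsense-mediated decay. The deposited FPKM sum all transcripts of a gene, so the inclusion of these exons was not measured.

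The Rbfox genes carry a shared exon of 93 bases that encodes part of the RNA-binding domain and whose skipping Rbfox proteins promote in their own transcripts. It is printed to show how far the Rbfox genes differ in this exon. The reading frame without it was not followed here, as it was for the Ptbp exons. Capitals mark the positions at which not all 3 genes have the same base. The exons lie at chr16:7292185-7292277 (plus strand, Rbfox1), chr15:77105577-77105669 (minus strand, Rbfox2) and chr11:118502842-118502934 (minus strand, Rbfox3), and each is coding.
Rbfox1: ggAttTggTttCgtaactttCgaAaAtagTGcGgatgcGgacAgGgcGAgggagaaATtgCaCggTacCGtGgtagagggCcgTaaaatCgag
Rbfox2: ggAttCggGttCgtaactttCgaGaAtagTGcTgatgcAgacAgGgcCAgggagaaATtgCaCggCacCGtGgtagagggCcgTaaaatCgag
Rbfox3: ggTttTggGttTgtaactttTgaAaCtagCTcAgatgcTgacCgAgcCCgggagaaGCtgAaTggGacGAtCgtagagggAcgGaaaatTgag
Rbfox1 and Rbfox2 shared 86 of 93 bases (92.5%), and each shared 69 (74.2%) with Rbfox3. No run of 50 bases of any Rbfox1, Rbfox2, Rbfox3, Elavl2, Elavl4 or Ptbp2 transcript occurred in the transcripts of another gene.

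Facts of the libraries that touch these values are as follows. Each library's estimate of depth, derived from how wide its Cufflinks intervals were, came to between 15446384 and 23138152 fragments. For the 10 genes the intervals reached between 1.61% and 8.09% of the level to either side, which covers estimation error within a library only. Ighmbp2 measured 0.876, 0.788 and 0.598 FPKM in the Nmd-/- libraries, and 1.44, 1.30 and 1.09 FPKM in the Nmd+/+ libraries. These values lie around the mean of 1 FPKM required for testing. The genotypes did not overlap at the altered gene, as was so for 2.67% of the 14611 genes tested. No gene was called between genotypes by limma, described below, so Ighmbp2 was not called either. The cultures carried few transcripts that define motoneurons: among 7 markers that the tables hold, 1 (Isl1) reached a mean of 1 FPKM, Chat did not exceed 0.0692 FPKM, and Mnx1 did not exceed 0.0247 FPKM in any library. The 12 pan-neuronal markers summed to between 1348 and 2500 FPKM in Nmd-/- libraries and between 1295 and 2644 FPKM in Nmd+/+ libraries. The 9 markers of progenitors and radial glia summed to between 4139 and 5143 FPKM in Nmd-/- libraries and between 3261 and 4520 FPKM in Nmd+/+ libraries. Replicate 2 stood apart in both genotypes: 6 fibroblast markers summed to 173.5 FPKM in its Nmd-/- library and to 140.8 FPKM in its Nmd+/+ library, against no more than 3.52 FPKM elsewhere. In whole cultures, fewer cells of a type and less RNA per cell cannot be told apart.

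Ptbp1 (ENSMUSG00000006498, chr10:79854427-79864771) was the most abundant of the 10 genes in every library. It measured 320.8, 315.2 and 263.4 FPKM in Nmd-/- replicates 1, 2 and 3, and 309.4, 272.3 and 150.2 FPKM in Nmd+/+ replicates 1, 2 and 3. Ptbp2 (ENSMUSG00000028134, chr3:119718742-119783388) measured 29.8, 15.3 and 24.1 FPKM in Nmd-/- and 30.9, 18.5 and 30.2 FPKM in Nmd+/+. Replicate 2 was the lowest for Ptbp2 in both genotypes, whereas the lowest Ptbp1 value was that of Nmd+/+ replicate 3; the genotypes overlapped for both genes. Ptbp3, the third paralogue, measured between 27.9 and 43.9 FPKM.

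The Elavl genes followed a common pattern; positions are those of the files on GRCm38. Elavl4 (HuD; ENSMUSG00000028546, chr4:110203722-110351909) measured 108.5, 63.5 and 79.9 FPKM in Nmd-/- replicates 1, 2 and 3, and 117.2, 64.7 and 108.1 FPKM in Nmd+/+. Elavl3 (HuC; ENSMUSG00000003410, chr9:22015005-22052023) measured 60.2, 28.1 and 42.4 FPKM in Nmd-/-, and 59.1, 27.3 and 57.6 FPKM in Nmd+/+. Elavl2 (HuB; ENSMUSG00000008489, chr4:91250763-91400785) measured 36.5, 20.7 and 31.7 FPKM in Nmd-/-, and 33.2, 22.6 and 40.6 FPKM in Nmd+/+. Replicate 2 was lowest for all 3 genes in both genotypes, and the genotypes overlapped for each. The ubiquitous paralogue Elavl1 (HuR) measured between 31.4 and 42.6 FPKM and made up between 13.2% and 22.6% of the summed FPKM of the 4 Elavl genes.

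Among the Rbfox genes, Rbfox1 (ENSMUSG00000008658, chr16:6809222-7412479) measured 87.3, 46.8 and 60.8 FPKM in Nmd-/-, and 98.1, 44.7 and 82.9 FPKM in Nmd+/+. Rbfox3 (ENSMUSG00000025576, chr11:118489762-118911597) measured 43.2, 25.9 and 32.9 FPKM in Nmd-/-, and 49.9, 23.2 and 45.5 FPKM in Nmd+/+. The broadly expressed Rbfox2 (ENSMUSG00000033565, chr15:77078990-77307053) measured 43.4, 28.9 and 39.6 FPKM in Nmd-/-, and 43.6, 32.5 and 45.2 FPKM in Nmd+/+. Replicate 2 was again the lowest in both genotypes for each gene. Rbfox2 had the narrowest spread of the 10 genes, its highest library lying 1.57-fold above its lowest, against 2.19-fold for Rbfox1 and 2.15-fold for Rbfox3.

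Nova1 (ENSMUSG00000021047, chr12:46694517-46818775) measured 33.4, 19.0 and 28.6 FPKM in Nmd-/-, and 33.9, 22.9 and 40.7 FPKM in Nmd+/+. Nova2 (ENSMUSG00000030411, chr7:18925888-18965319) measured 51.8, 29.6 and 34.6 FPKM in Nmd-/-, and 51.0, 21.8 and 33.5 FPKM in Nmd+/+. Nova1 was thus highest in Nmd+/+ replicate 3 and Nova2 in replicate 1 of both genotypes, and both were lowest in replicate 2.

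**Figure D1:**
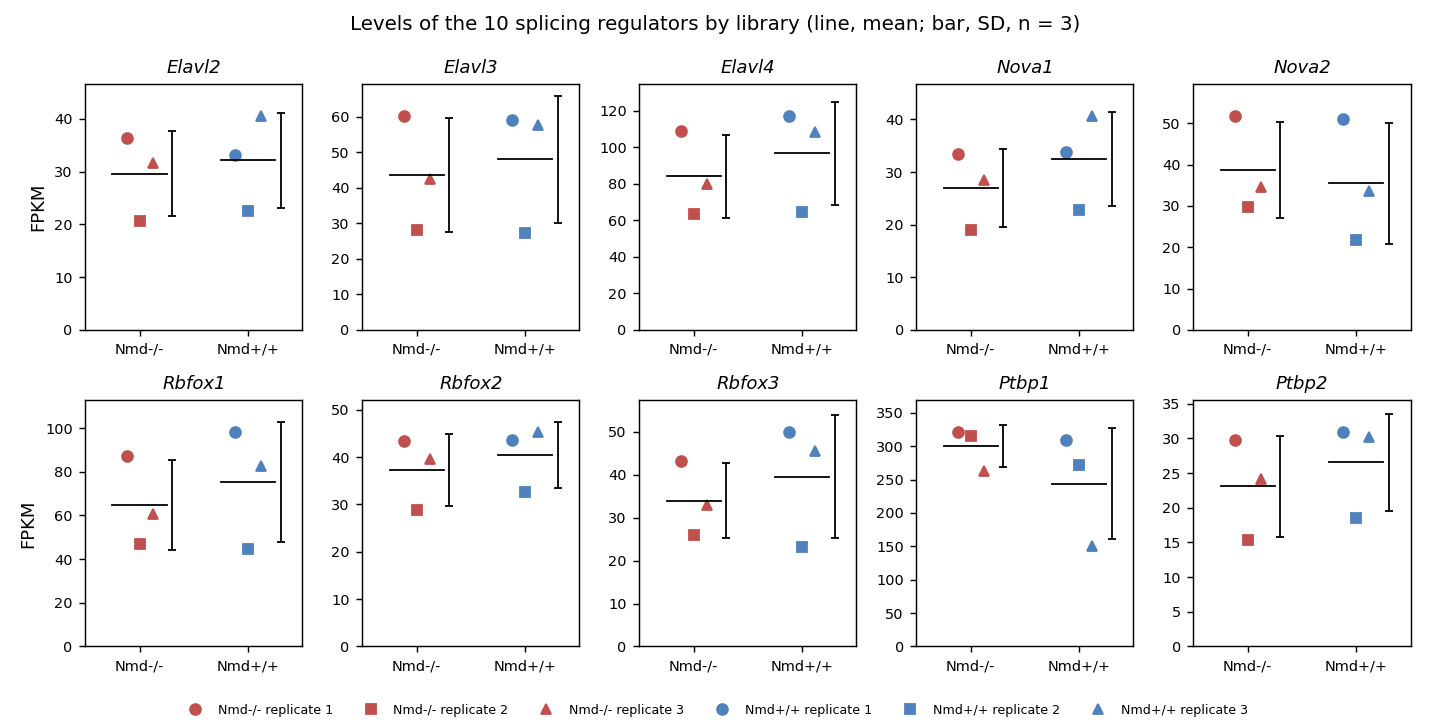
FPKM of the 10 genes in each library, with Nmd-/- in red and Nmd+/+ in blue, symbols for the replicate number, a line for the mean and a bar for the SD (n = 3). Replicate 2 (squares) is the lowest of its genotype for every gene except Ptbp1, whose lowest library is Nmd+/+ replicate 3 at 150.2 FPKM.

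Ordered by their mean over the 6 libraries, the genes ran from Ptbp1 (271.9 FPKM) through Elavl4 (90.3), Rbfox1 (70.1), Elavl3 (45.8), Rbfox2 (38.9), Nova2 (37.1), Rbfox3 (36.7), Elavl2 (30.9) and Nova1 (29.7) to Ptbp2 (24.8 FPKM). Only between Ptbp1 and Elavl4 did the ranges of neighbours in this order not overlap. Elavl4 lay above Rbfox1, Rbfox1 above Elavl3, Rbfox3 above Elavl2 and Nova1 above Ptbp2 in 6 of 6 libraries although their ranges overlapped. The neighbours Rbfox2 and Nova2, as well as Elavl2 and Nova1, changed places between libraries, with the first of each pair higher in 3 of 6, so their order is not settled. Elavl3 exceeded Rbfox2, and Nova2 exceeded Rbfox3, in 4 of 6.

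Shares within the neuronal Elavl, Nova and Rbfox families varied less between libraries than the summed level of each. In the Ptbp family the reverse held for Ptbp2, whose share of the summed FPKM of Ptbp1, Ptbp2 and Ptbp3 varied 3.48-fold while the sum varied 1.83-fold. Elavl4 contributed 53.8 ± 2.5% of the summed FPKM of the 3 neuronal Elavl genes in Nmd-/- and 54.9 ± 2.2% in Nmd+/+ (SD, n = 3 each), while that sum itself varied 1.87-fold between libraries. Rbfox3 contributed 25.01 ± 0.43% of the Rbfox sum in Nmd-/- and 25.10 ± 1.76% in Nmd+/+, and the Rbfox1 to Rbfox3 ratio stayed between 1.81 and 2.02. Rbfox2 took its highest share of the family in replicate 2 of Nmd+/+ (32.4%), where Rbfox1 and Rbfox3 were at their lowest.

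The order of the Nova paralogues was not the same in all libraries. Nova2 exceeded Nova1 1.55-fold, 1.56-fold and 1.21-fold in Nmd-/- replicates 1, 2 and 3, and in Nmd+/+ the ratios were 1.51, 0.954 and 0.823. Nova2 was therefore the more abundant paralogue in 4 of the 6 libraries, and below Nova1 in Nmd+/+ replicates 2 and 3. On the log2 scale the ratio was higher in Nmd-/- by 0.04, 0.71 and 0.56 for the replicate numbers 1, 2 and 3; these ratios were singled out after their values were seen and are given with no test. Reads of Nova2 may include those of Gm26821 on the opposite strand, since 30.8% of the 50-base runs of Nova2 transcripts are antisense to transcripts of other genes. Gm26821 did not exceed 3.82 FPKM.

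**Figure D2:**
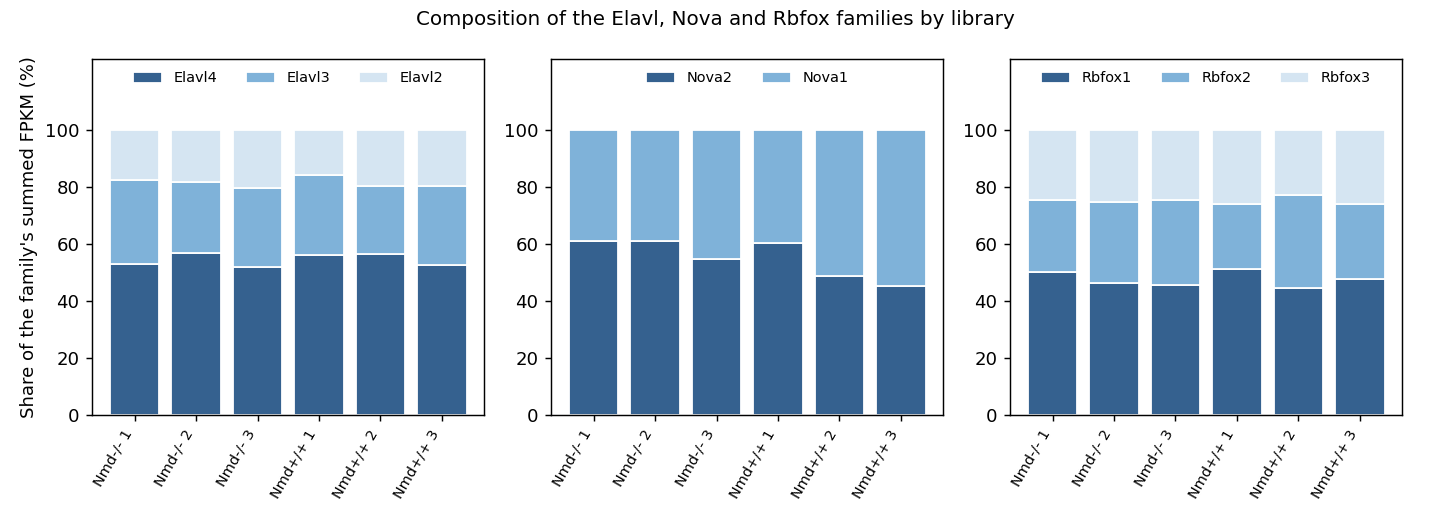
Share of each gene in the summed FPKM of its family (percent) in the 6 libraries, Nmd-/- at the left of each panel. Elavl4 stays between 51.9% and 56.6% of its family and Rbfox3 between 23.1% and 26.2%, while Nova2 ranges from 45.2% (Nmd+/+ replicate 3) to 61.0% (Nmd-/- replicate 2).

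The common pattern was set beside the neuronal transcripts of each library. Each level was divided by the sum of 12 pan-neuronal markers and is given per 1000 FPKM of that sum. The spread of Elavl3 between the highest and the lowest library was then 1.16-fold in place of 2.21-fold, that of Rbfox3 1.16-fold in place of 2.15-fold, that of Rbfox1 1.21-fold in place of 2.19-fold and that of Ptbp2 1.26-fold in place of 2.01-fold. Ptbp2, for example, came to 11.9, 11.4 and 12.1 in Nmd-/- and to 11.7, 14.3 and 11.9 in Nmd+/+. Rbfox2 kept nearly its whole spread (1.52-fold against 1.57-fold). Ptbp1 moved the other way: its spread was 3.94-fold in place of 2.14-fold. Set against the sum of the progenitor and radial glia markers instead, Ptbp1 varied 1.68-fold, and 2.68-fold with Vim, the most abundant of those markers, left out. Without Vim, Fabp7 was the most abundant of them. The narrowing rested in part on replicate 2: among the other 4 libraries, a choice made after seeing the data, the spread was 1.13-fold in place of 1.42-fold for Elavl3, 1.04-fold in place of 1.28-fold for Ptbp2 and 1.21-fold in place of 1.61-fold for Rbfox1. For Elavl2, Nova2, Rbfox2 and Ptbp1 it narrowed little or widened there, and for Ptbp1 it was 2.23-fold in place of 2.14-fold.

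**Figure D3:**
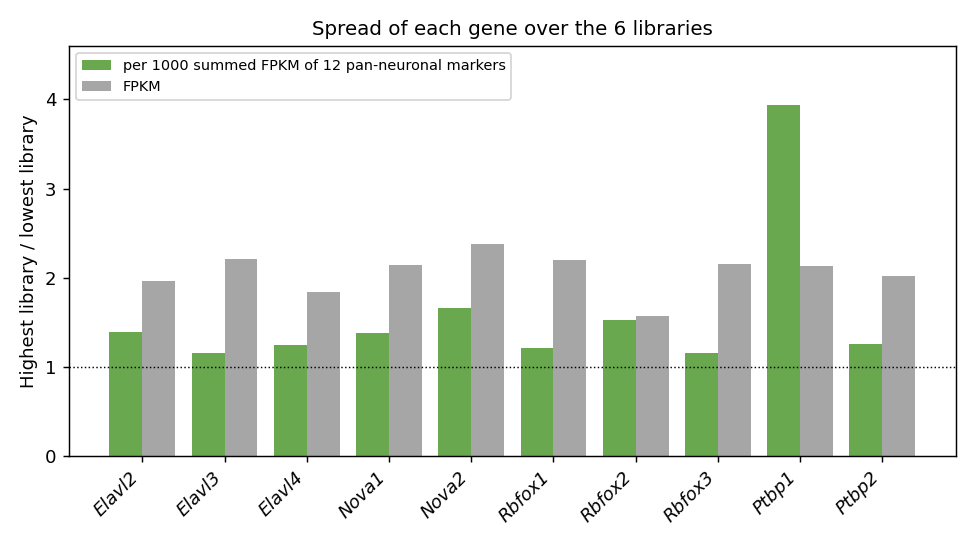
Ratio of the highest to the lowest of the 6 libraries for each gene, per summed pan-neuronal FPKM (green) and as FPKM (grey). The green bar is the shorter for every gene except Ptbp1, where it reaches 3.94 against 2.14.

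All 10 genes varied more between libraries than the median gene tested: the median SD of log2(FPKM + 1) was 0.41 for the 10 genes and 0.20 for all 14611. The replicate number accounted for a median of 89.6% of the variance of the 10 genes, against 73.2% over all genes, and genotype for 5.48% against 5.23%. Ptbp1 had the smallest share by replicate number (59.2%) and the largest by genotype (22.3%) of the 10. These values rest on replicate 2: among the other 4 libraries the median SD was 0.24 for the 10 genes and 0.16 for all genes, with 7 of the 10 above the median of all. The median share of the replicate number was then 38.8% for the 10 genes, below the 59.7% of all genes, and that of genotype 39.0% against 16.6%. With fewer libraries genotype takes a larger share of the variance even without an effect. Its share among 4 libraries therefore cannot be set directly against that among all libraries.

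The Ptbp1 to Ptbp2 ratio was taken in each library. Ptbp1 exceeded Ptbp2 10.8-fold, 20.6-fold and 10.9-fold in Nmd-/- replicates 1, 2 and 3, and 10.02-fold, 14.7-fold and 4.98-fold in Nmd+/+ replicates 1, 2 and 3. The ratio was highest in replicate 2 of both genotypes, the libraries with the lowest sums of pan-neuronal markers, and it was lowest in Nmd+/+ replicate 3. Vim, which encodes vimentin, was also lowest in that library, at 2380 FPKM, and so was the progenitor and radial glia sum, of which Vim made up 73.0% there and up to 86.6% elsewhere. The other 8 markers of that list summed to 881.1 FPKM in Nmd+/+ replicate 3, within their range of 690.4 to 930.2 FPKM over the libraries. Fabp7 made up 563.8 FPKM of that sum and was at its highest there. Nes (20.9 FPKM), Pax6 (45.7 FPKM) and Mki67 (58.3 FPKM) were, like Vim, at their lowest there. Sox2, Hes5, Top2a and Slc1a3 were not. The ratio differed 4.13-fold between its extremes. The summed Elavl2, Elavl3 and Elavl4 was 205.3, 112.3 and 154.0 FPKM in Nmd-/- replicates 1, 2 and 3, and 209.4, 114.5 and 206.3 FPKM in Nmd+/+. It was lowest in the replicate 2 libraries, yet nearly equal in Nmd-/- replicate 1, Nmd+/+ replicate 1 and Nmd+/+ replicate 3, whose ratios were 10.8, 10.02 and 4.98.

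Between genotypes the ratio averaged 14.1 ± 5.6 in Nmd-/- and 9.91 ± 4.88 in Nmd+/+ (SD, n = 3 each). On the log2 scale the mean was 3.75 ± 0.53 in Nmd-/- and 3.17 ± 0.79 in Nmd+/+, a difference of 0.57 with the genotypes overlapping (exact two-sided permutation p = 0.4, where the smallest possible is 0.1). Nmd-/- was higher in 3 of 3 replicate numbers, by 0.10, 0.48 and 1.13 on the log2 scale, and the exact sign-flip test within replicate numbers gave p = 0.25, the smallest it can give. The difference depended on single libraries: leaving out Nmd-/- replicate 2 gave 0.26, and leaving out Nmd+/+ replicate 3 gave 0.14. In the other direction, it became 0.72 when Nmd-/- replicate 3 was omitted and 0.93 when Nmd+/+ replicate 2 was (exact permutation p = 0.1 for the last, the smallest this layout allows). With both replicate 2 libraries left out it was 0.62 (exact permutation p = 0.333, the smallest this layout allows). The progenitor and radial glia sum over the pan-neuronal sum was higher in Nmd-/- than in Nmd+/+ in replicate 3 (2.21 against 1.29). In replicates 1 and 2 it was 1.66 and 3.81 in Nmd-/-, and 1.59 and 3.49 in Nmd+/+. Without Vim it was 0.288, 0.512 and 0.468 in Nmd-/- replicates 1, 2 and 3, and 0.285, 0.675 and 0.348 in Nmd+/+. Without Vim it was thus lower in Nmd-/- in replicate 2, where the Ptbp1 to Ptbp2 ratio was higher in Nmd-/-. The part of that balance in the ratio was not tested. The Ptbp1 locus overlaps that of BC005764 on the opposite strand, a gene with between 52.8 and 93.6 FPKM that was highest in Nmd+/+ replicate 3, where Ptbp1 was lowest. Whether reads of either gene entered the value of the other was not tested.

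**Figure D4:**
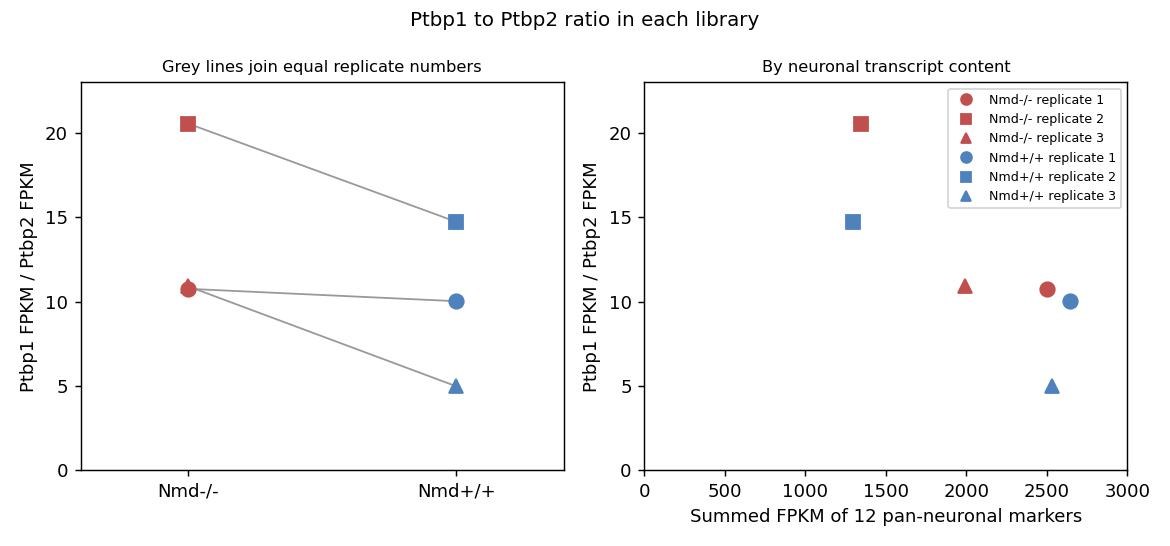
Ratio of Ptbp1 to Ptbp2 FPKM in each library, by genotype with Nmd-/- at the left (grey lines join equal replicate numbers) and against the summed FPKM of 12 pan-neuronal markers. The replicate 2 libraries, at 20.6 and 14.7, lie highest and have the smallest neuronal sums; Nmd+/+ replicate 3 lies lowest at 4.98.

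The genotypes were then compared gene by gene with limma on log2(FPKM + 1), fitted over all 14611 genes. None of the 10 genes passed an adjusted p of 0.05, and nor did any other gene: 0% of the genes tested were called, and 0% with the replicate number as a block. At an unadjusted p under 0.05 limma gave 65 genes of 14611, none of them among the 10, and 711 with the replicate block, of which 1 (Ptbp1) was among the 10. With the block and without either replicate 2 library, 20 genes were called, none of them among the 10. The 3 values of each genotype overlapped for all 10 genes, whereas 2.67% of all genes had no overlap.

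Ptbp1 had the largest difference of the 10. Its mean was 299.8 ± 31.7 FPKM in Nmd-/- and 244.0 ± 83.3 FPKM in Nmd+/+ (SD, n = 3 each), a log2 difference of 0.36 (SE 0.27, 95% interval -0.28 to 0.99; limma adjusted p = 0.9997). With the replicate block the SE was 0.14, the unadjusted p 0.0307 and the limma adjusted p 0.990. The difference was 0.05, 0.21 and 0.81 for replicate numbers 1, 2 and 3, and 0.04 without Nmd+/+ replicate 3. Ptbp2 averaged 23.1 ± 7.3 FPKM in Nmd-/- and 26.5 ± 7.0 FPKM in Nmd+/+, a log2 difference of -0.20 (SE 0.28, 95% interval -0.87 to 0.46; limma adjusted p = 0.9997). It was lower in Nmd-/- in 3 of 3 replicate numbers, by their log2 values of -0.05, -0.25 and -0.31.

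Nova1 had the second largest difference, at 27.0 ± 7.4 FPKM in Nmd-/- and 32.5 ± 9.0 FPKM in Nmd+/+ (log2 difference -0.26, SE 0.27, limma adjusted p = 0.9997; unadjusted p 0.0527 with the block). Nova2 was the only neuronal member with a higher mean in Nmd-/-, at 38.7 ± 11.6 FPKM against 35.5 ± 14.7 FPKM in Nmd+/+ (log2 difference 0.16, SE 0.32). The remaining 6 genes had log2 differences between -0.19 (Elavl4) and -0.11 (Elavl2), with intervals that all included 0. Rbfox3, for example, averaged 33.99 ± 8.68 FPKM in Nmd-/- and 39.50 ± 14.32 FPKM in Nmd+/+, with an interval from -0.90 to 0.56 on the log2 scale.

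By their means 8 of the 10 genes were lower and 2 higher in Nmd-/-, with a median log2 difference of -0.15, beside 0.02 over all genes, of which 56.0% were higher. Nova2 and Ptbp1 were higher in 3 of 3 replicate numbers, as were 14.9% of all genes, and Elavl4, Nova1, Rbfox2 and Ptbp2 were lower in 3 of 3, as were 10.6% of all genes. The lower median came with replicate 3, where the median of the 10 was -0.39, against -0.01 in replicate 1 and 0.01 in replicate 2. In replicate 3 the pan-neuronal sum was likewise lower in Nmd-/-, at 1989 FPKM against 2531 FPKM in Nmd+/+. Per 1000 FPKM of that sum, Elavl3 came to 21.3 in Nmd-/- replicate 3 and 22.8 in Nmd+/+ replicate 3. Ptbp2 came to 12.1 in Nmd-/- replicate 3 and 11.9 in Nmd+/+ replicate 3. Like Elavl3, the genes Elavl2, Elavl4, Nova1, Rbfox1 and Rbfox3 were still lower in Nmd-/- replicate 3, with Nova1 at 14.4 against 16.1. Like Ptbp2, the genes Rbfox2, Nova2 and Ptbp1 were higher there. The part of the pan-neuronal sum in these differences was not tested.

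**Figure D5:**
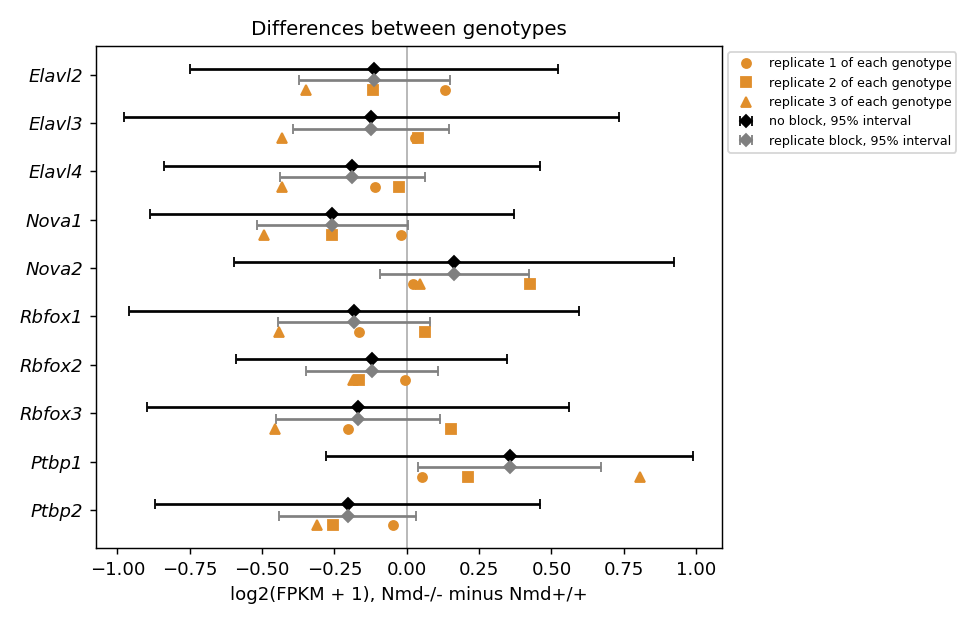
Difference of each gene between Nmd-/- and Nmd+/+ on the log2(FPKM + 1) scale, from limma without the block (black) and with the replicate block (grey), each with its 95% interval, and for each replicate number (orange). Every black interval includes 0, and replicate 3 (triangles) gives the lowest orange value for every gene except Nova2 and Ptbp1.

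Other splicing regulators of neural tissue were read from a list of 25 genes, of which 23 were tested and 0 were called in either direction by limma. Their median log2 difference was 0.02, with 12 higher and 11 lower by their means in Nmd-/-. Esrp1 and Esrp2, which set epithelial splicing, did not exceed 0.0620 FPKM. The most abundant was Msi2, an RNA-binding protein of neural progenitors, at 130.3 ± 20.4 FPKM in Nmd-/- and 120.2 ± 20.1 FPKM in Nmd+/+ (SD, n = 3 each). Its paralogue Msi1 had the smallest p, at 65.6 ± 3.9 FPKM in Nmd-/- and 57.0 ± 12.9 FPKM in Nmd+/+ (limma adjusted p = 0.9997), followed by Raver1, a Ptbp1 cofactor, at 37.5 ± 4.3 FPKM in Nmd-/- and 32.2 ± 10.6 FPKM in Nmd+/+. Srrm4, the activator of neuronal microexons, measured 10.5, 4.01 and 7.32 FPKM in Nmd-/- and 10.4, 3.92 and 7.64 FPKM in Nmd+/+, with replicate 2 lowest in both. Mbnl2 ran the other way, with replicate 2 highest in both genotypes at 99.5 FPKM in Nmd-/- and 108.5 FPKM in Nmd+/+, against at most 78.5 FPKM in the other libraries.

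Genes tied to the Ptbp switch were read from a list of 8, of which 6 were in the tables and tested, and 0 were called by limma. Their median log2 difference was 0.19, beside 0.02 over all genes, with 4 higher and 2 lower by their means in Nmd-/-. Rest, Ctdsp1, Ctdsp2 and Ctdspl were higher in 3 of 3 replicate numbers, as were 14.9% of all genes. Gabbr1 was lower in 3 of 3, as were 10.6% of all genes. The host genes Mir124a-1hg and Mir124-2hg were not found under these names. Rest, the repressor of neuronal genes outside neurons, measured 3.14, 4.72 and 3.49 FPKM in Nmd-/- and 3.09, 4.03 and 2.68 FPKM in Nmd+/+, so it was highest in replicate 2 of both. The phosphatase genes Ctdsp1 and Ctdspl, whose products act with Rest, had the smallest p (limma adjusted p = 0.9997 for both). Ctdsp1 averaged 26.95 ± 3.61 FPKM in Nmd-/- and 23.02 ± 3.43 FPKM in Nmd+/+ (SD, n = 3 each). For Ctdspl the mean was 11.1 ± 1.9 FPKM in Nmd-/- and 9.33 ± 1.79 FPKM in Nmd+/+. Dlg4, which encodes PSD-95 and whose mRNA decays when Ptbp proteins cause skipping of an exon, measured 153.4, 82.8 and 84.1 FPKM in Nmd-/- and 149.0, 63.0 and 123.2 FPKM in Nmd+/+. Replicate 2 was the lowest for Dlg4 in both genotypes.

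All 6 listed mRNAs reported as bound or stabilised by neuronal Elavl proteins were tested, one of which (Gap43) also stands in the pan-neuronal list, and 0 were called by limma. All 6 had lower means in Nmd-/-, with a median log2 difference of -0.13, beside 0.02 over all genes, of which 56.0% were higher. In 3 of 3 replicate numbers 4 of the 6 were lower, as were 10.6% of all genes, and 0 were higher, against 14.9%. The median was -0.09, -0.07 and -0.44 for replicate numbers 1, 2 and 3, so it was lowest in replicate 3, where the pan-neuronal sum was also lower in Nmd-/-; the part of that sum in it was not tested. Mapt, the gene of the microtubule protein tau, was the most abundant, at 293.0 ± 129.0 FPKM in Nmd-/- and 327.3 ± 153.1 FPKM in Nmd+/+ (SD, n = 3 each). Nrn1 (neuritin) had the smallest p, at 14.6 ± 4.4 FPKM in Nmd-/- and 18.8 ± 6.1 FPKM in Nmd+/+ (log2 difference -0.33; limma adjusted p = 0.9997). Marcks followed, at 86.6 ± 9.3 FPKM in Nmd-/- and 95.6 ± 11.2 FPKM in Nmd+/+. With the replicate block, the unadjusted limma p of Nrn1 was 0.0386 and its limma adjusted p 0.999.

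Profiles most like those of 3 members were sought by the root mean square difference of centred log2(FPKM + 1) over the 6 libraries, among 14610 other genes. The nearest to Ptbp2 were Chgb, a protein of secretory granules (0.02), the protocadherin Pcdhb17 (0.04) and Snrpn, a component of neuronal spliceosomes (0.04). For Elavl3, the member with the largest SD, they were the acid-sensing channel Asic1 (0.03), Ndrg4 (0.04) and the cation exchanger Slc24a3 (0.04). The nearest to Ptbp1 were the Hippo pathway kinase Lats2 (0.05), Trp53 (0.08) and Palld, an actin-bundling protein (0.09). Among the members themselves Rbfox1 and Rbfox3 were closest (0.06), and the member nearest to Ptbp1, Nova2, was 0.49 away and ranked 11469 by nearness.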

How the data were processed

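The authors deposited 1 Cufflinks gene table per library that holds FPKM values and interval bounds, per the file headers. Trim Galore 0.4.0, cutadapt 1.8, Cufflinks 2.2.1 and the build GRCm38 appear in the submitters' processing notes. Strand use, the aligner's version and the annotation are not given in those sources, so reads of overlapping genes on opposite strands may not be told apart. FPKM are relative to each library's own total and carry no counts.

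Differences, Nmd-/- minus Nmd+/+, were fitted in R 4.3.3 with limma 3.58.1 and an intensity trend on log2(FPKM + 1), over the 14611 genes with a mean of at least 1 FPKM and an accepted status in each library. This scale understates changes of low genes. P-values are two-sided and Benjamini-Hochberg adjusted over all genes, with a threshold of 0.05. The Ptbp1 to Ptbp2 ratio was tested by exact permutation. Members and lists were chosen with earlier results of these data known. All members were named; from each of the 3 pathway lists, the 2 tested genes with the smallest p and the most abundant gene; and the 3 nearest profiles of Ptbp1, Ptbp2 and the member with the largest SD. Other genes of the splicing and circuit lists could be named with their level. The marker lists were given as sums and single markers of the cultures as levels, with no such choice by p. For Ptbp1, 4.75% of the runs of 50 bases in its transcripts occurred in other genes' transcripts and 13.6% antisense to them; the deposited Rbfox1 locus starts 923867 bases after that of GENCODE M21.

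Libraries sharing a replicate number departed from their group means together (r across genes of 0.82, 0.70 and 0.39 for the numbers 1, 2 and 3; among unlike numbers r reached 0.28, between Nmd-/- replicate 1 and Nmd+/+ replicate 3), so the numbers were treated as pairs; this rests on the values, not on a label. On simulated data of 14611 genes for this comparison, limma called 61% of the 2-fold changes, 91% of the 4-fold changes and 0 unchanged genes. The replicate block raised these to 76%, 95% and 5 unchanged genes.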

Additional observations from a re-analysis of the deposited data

How the results depend on the processing

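No member was called under any of the 14 alternatives of its fit, and no other gene of the pathway lists was. The count of all genes called was 0 in each of them except the replicate block fitted without either replicate 2 library, chosen after seeing the data, which called 20 genes, none of them a member (smallest limma adjusted p of a member 0.321, Rbfox3). Also tried were a filter at 5 FPKM or none, 0.1 as the pseudocount, scaling by median of ratios (with and without the block), both replicate 2 libraries left out without the block, and each library left out in turn. The replicate block changed no call; in this balanced layout it cannot move a difference (0.36 for Ptbp1 in both fits), only its error. The signs of Elavl4, Nova1, Ptbp1 and of the Ptbp1 to Ptbp2 ratio did not turn in any alternative run for them, but the sizes depended on single libraries: with 1 library left out, log2 differences ranged from -0.45 to -0.006 for Elavl4, -0.48 to -0.03 for Nova1, 0.04 to 0.56 for Ptbp1 and 0.14 to 0.93 for the ratio. Elavl4 and Nova1 were nearest 0 without Nmd-/- replicate 2. The signs of the other members turned only when 1 library was left out, with ranges of -0.34 to 0.12 for Elavl2, -0.48 to 0.15 for Elavl3, -0.13 to 0.46 for Nova2, -0.51 to 0.044 for Rbfox1, -0.27 to 0.048 for Rbfox2, -0.50 to 0.033 for Rbfox3 and -0.44 to 0.052 for Ptbp2. Elavl2, Elavl3, Rbfox1, Rbfox2, Rbfox3 and Ptbp2 turned without Nmd-/- replicate 2, Elavl3, Rbfox1 and Rbfox3 also without Nmd+/+ replicate 1, Elavl2 and Elavl3 also without Nmd+/+ replicate 3, and Nova2 without Nmd-/- replicate 1 or Nmd+/+ replicate 2. The cause was not tested.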
